A study of Mus musculus with 18 samples.

Results

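The genes described here are the immediate early genes Fos, Fosb, Jun, Junb, Egr1, Egr2, Egr3, Egr4, Arc and Npas4. They were taken by name from the table of gene counts, which held all 10 among its 24015 genes. The rule itself used no measured value, but the genes were chosen with earlier results of these data known. When a neuron is excited, calcium entry and the ERK and calmodulin kinases act on transcription factors that already sit on DNA, chiefly CREB and SRF, and genes of this class are then transcribed without new protein synthesis. Their transcripts are short-lived, and in cortex they are widely read as marks of recent neuronal activity. FOS and JUN family proteins pair to form AP-1, EGR proteins are zinc-finger factors, NPAS4 is a neuron-enriched basic helix-loop-helix factor, and ARC is a postsynaptic protein that acts in AMPA receptor endocytosis.

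RNA was sequenced from tdTomato-positive cells (tdTomato is a red fluorescent protein) sorted from mouse cortices at postnatal day 5, about 25000 cells in each sample. The 3 groups of 4 libraries were layer 6 cells of Tbr1 null mice (null L6), layer 5 cells of wild-type mice (WT L5) and layer 6 cells of wild-type mice (WT L6). Tbr1 encodes a transcription factor of the T-box family that deep-layer neurons of the cortex express, and the series asks how its dose after birth bears on layer 6 connectivity. The sample labels name the mutant a null of layer 6, while the design text speaks of a constitutive null. What drives tdTomato, the strain of these mice and the part of Tbr1 that is lost were not given in the sources used here. No label states that replicates are different animals, and the p-values then cover only the spread among these libraries, which may be technical. All L6 libraries belong to sequencing batch A, WT L5 replicates 1 and 2 to batch B and WT L5 replicates 3 and 4 to batch C, so that layer and batch cannot be told apart.

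Library totals were 41091165 to 47540669 counts in null L6, 27465597 to 39703820 in WT L5 and 32982957 to 54899002 in WT L6. Levels are given below as CPM, the share of a library's counts scaled to a common total, on TMM-scaled library sizes. These allow 1 gene to be compared between libraries but, with no correction for transcript length, not different genes with each other. Within each group the libraries fell into 2 close pairs by the chi-square of their counts per degree of freedom. It was 9.003 and 10.8 within the pairs of null L6 (replicates 1 with 2 and 3 with 4) and 23.1 to 61.8 between them, 1.33 and 1.40 within those of WT L5 (1 with 3 and 2 with 4) and 2.97 to 3.41 between them, and 3.26 and 5.18 within those of WT L6 (1 with 2 and 3 with 4) and 10.9 to 19.9 between them. The paired libraries differed by more than sampling noise, though by little in WT L5, and this does not show that they are separate samples. Each close pair of WT L5 spans batches B and C. All libraries were counted singly, but whether a pair shares an animal or a pool is not given in the labels. The n of 4 may thus overstate the number of separate samples, and the p-values would then be too small. Tbr1 stood at 91.6 to 97.4 CPM in null L6, 40.2 to 45.7 CPM in WT L5 and 169 to 182 CPM in WT L6. The libraries labelled layer 5 had less of the layer 5 markers (summed level 306 to 315 CPM) than null L6 (655 to 720 CPM) and WT L6 (542 to 562 CPM), and more of the glial markers, so that these lists go against their label. In bulk samples such as these, fewer cells of a type and less RNA per cell cannot be told apart.

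RefSeq (GRCm38.p6) gave promoter entries for 7 of the 10 genes, and Egr1, Egr3 and Arc had none. The 250 bases before the transcription start are printed for the 3 genes of this group with 2 matches each to the half-site of the CREB motif at a single annotated start, for Junb, the 1 gene called between genotypes, and for Jun, the 1 gene that was lower in WT L5 than in WT L6. Capitals mark the CREB half-site TGACG, or CGTCA where it lies on the opposite strand. All are written 5′ to 3′ on the strand of the gene.
Fos (chr12:85473640-85473889, plus strand): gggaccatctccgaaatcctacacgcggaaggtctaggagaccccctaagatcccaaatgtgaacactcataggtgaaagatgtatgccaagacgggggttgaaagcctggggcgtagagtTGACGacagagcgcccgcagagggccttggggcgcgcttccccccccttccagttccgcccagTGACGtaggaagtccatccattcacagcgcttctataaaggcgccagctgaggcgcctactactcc
Egr4 (chr6:85513590-85513839, minus strand): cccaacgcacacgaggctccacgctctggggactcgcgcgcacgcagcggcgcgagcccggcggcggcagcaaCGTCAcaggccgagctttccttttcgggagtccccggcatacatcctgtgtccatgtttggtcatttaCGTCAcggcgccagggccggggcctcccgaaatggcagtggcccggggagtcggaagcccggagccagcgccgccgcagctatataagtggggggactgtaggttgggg
Npas4 (chr19:4989972-4990221, minus strand): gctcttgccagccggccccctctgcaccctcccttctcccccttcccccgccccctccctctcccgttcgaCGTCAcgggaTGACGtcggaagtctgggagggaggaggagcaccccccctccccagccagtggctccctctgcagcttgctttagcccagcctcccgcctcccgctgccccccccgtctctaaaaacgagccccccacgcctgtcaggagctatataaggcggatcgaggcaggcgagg
Junb (chr8:84978749-84978998, minus strand): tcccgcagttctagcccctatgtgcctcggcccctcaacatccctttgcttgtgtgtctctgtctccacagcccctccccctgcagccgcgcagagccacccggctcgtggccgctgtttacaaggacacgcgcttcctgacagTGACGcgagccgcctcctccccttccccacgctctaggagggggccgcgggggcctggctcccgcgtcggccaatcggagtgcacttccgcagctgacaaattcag
Jun (chr4:95052223-95052472, minus strand): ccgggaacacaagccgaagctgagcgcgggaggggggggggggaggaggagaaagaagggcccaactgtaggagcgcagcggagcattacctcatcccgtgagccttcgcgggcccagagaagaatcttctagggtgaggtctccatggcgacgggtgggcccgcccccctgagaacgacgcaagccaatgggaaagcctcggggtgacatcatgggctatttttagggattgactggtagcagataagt

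The half-site was found in 6 of the 7 genes and in 17.8% of the 32851 RefSeq promoters of the same length, with both strands searched. Counted back from the transcription start, its first base lay at -129 and -66 in Fos, at -177 and -109 in Egr4, at -179 and -169 in Npas4, at -106 in Junb and at -60 in Fosb. Egr2 has 5 annotated starts, of which 3 had the half-site within the window. Jun had no match in these letters. The full palindrome TGACGTCA, which contains the half-site on both strands, was in 0 of 7 (1.55% of all promoters), and the AP-1 motif TGANTCA in 0 of 7 (6.75%). The EGR motif GCGTGGGCG was in 0 of 7 (0.536%), and the T-box motif GGTGTGA in 0 of 7 (3.33%). The CArG box, the letters bound by SRF, was in 1 of 7 (Egr2; 1.47% of all promoters), and the TATA letters TATAAA in 1 of 7 (Fos, at -33; 12.4%). These matches describe the letters in the window and not bound sites.

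Between the wild-type layers the 10 genes differed by up to 12.6-fold, and between the genotypes of layer 6 the libraries overlapped for 8 of them. Null L6 and WT L6 did not overlap for 2 of the 10 and for 19.9% of all genes tested, so this count is near that background. Fos, Fosb, Npas4 and Egr4 were 9.37- to 12.6-fold higher in WT L5 than in WT L6 libraries. Of these, Fosb, Npas4 and Egr4 reached the level of the filter on low counts in 0, 0 and 1 of the WT L6 libraries. They passed that filter through WT L5 and had to differ. Egr2 and Egr3 were 4.34- and 3.52-fold higher, Arc was 2.25-fold higher, and Egr1 and Junb were 1.65- and 1.44-fold higher. Jun, the partner of FOS in AP-1, was 1.17-fold lower in WT L5. All 10 were called between layers, but so were 85.5% of all genes tested, and WT L5 and WT L6 did not overlap for all 10 and for 81.2% of all genes tested. Between null L6 and WT L6, 1 gene passed the test, Junb, which was 1.25-fold lower in null L6, while 14.2% of all genes tested were called between genotypes. The same tests across all genes are used throughout: edgeR's quasi-likelihood test with Benjamini-Hochberg adjustment over all genes tested, called at an adjusted p under 0.05.

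**Figure D1:**
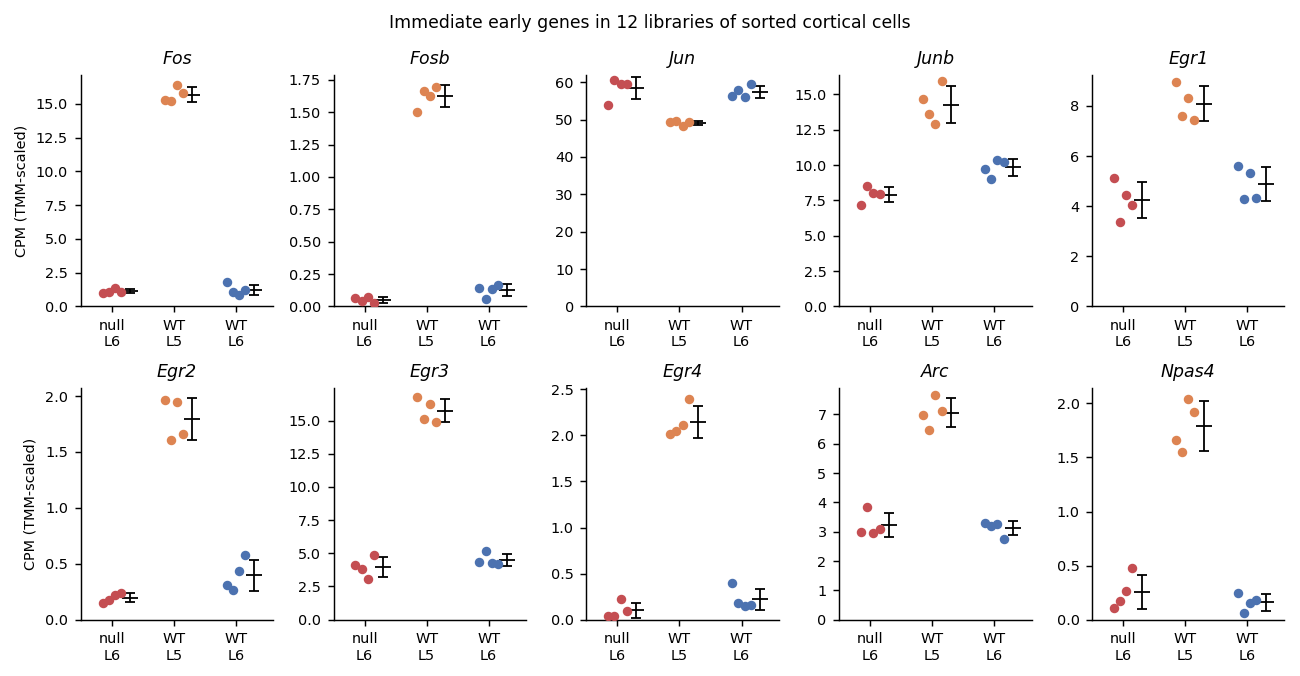
CPM (TMM-scaled) of the 10 immediate early genes in null L6, WT L5 and WT L6, with a separate vertical axis from 0 for each gene. Points are libraries (replicates 1 to 4 from left to right) and bars are the mean ± SD of 4 libraries; in 9 panels every WT L5 point lies above all L6 points, and in the Jun panel every WT L5 point lies below them.

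Fos and Fosb, the FOS family genes of the group, were 12.6- and 12.1-fold higher in WT L5 than in WT L6. Fos, the proto-oncogene that gave the family its name, was at 1.01, 1.08, 1.39 and 1.04 CPM in null L6, at 15.3, 15.2, 16.4 and 15.8 CPM in WT L5 and at 1.77, 1.04, 0.872 and 1.21 CPM in WT L6. The WT L5 libraries lay close together and far above both L6 groups, which overlapped, with WT L6 replicate 1 the highest of the L6 libraries. Behind these levels stood 44 to 57 counts in null L6, 428 to 599 in WT L5 and 35 to 85 in WT L6. The log2 fold change was -0.13 ± 0.24 (SE) for null L6 over WT L6 (adjusted p = 0.787) and 3.65 ± 0.14 for WT L5 over WT L6 (adjusted p = 4.25e-12). Among all genes tested between layers, 1.13% had a log2 fold change at least as high.

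Fosb, a close homolog of Fos, had 3, 2, 3 and 1 counts in null L6, 59, 57, 50 and 46 counts in WT L5 and 7, 2, 6 and 9 counts in WT L6. Its level averaged 0.0509 ± 0.0218 CPM in null L6, 1.62 ± 0.0845 CPM in WT L5 and 0.125 ± 0.0453 CPM in WT L6 (SD, n = 4 each). Few reads were seen in any L6 library, the L6 groups overlapped, and all WT L5 libraries were above them. The log2 fold change between layers was 3.60 ± 0.27 (adjusted p = 9.09e-09). Fosb passed the filter on low counts there only through WT L5, so this p-value lends no support. Between genotypes Fosb did not pass the filter on low counts, and a fit without that filter gave -1.29 ± 0.59 (adjusted p = 0.205).

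Jun and Junb encode the JUN partners of AP-1. Jun was at 54.0, 60.6, 59.5 and 59.5 CPM in null L6, at 49.3, 49.6, 48.3 and 49.4 CPM in WT L5 and at 56.3, 57.8, 56.1 and 59.5 CPM in WT L6. The WT L5 libraries were the lowest, with no overlap with either L6 group, while the L6 groups overlapped. Its log2 fold change was 0.025 ± 0.043 between genotypes (adjusted p = 0.764) and -0.23 ± 0.032 between layers (adjusted p = 1.02e-05), a size that is ordinary there, since 39.4% of genes tested had a log2 fold change as low or lower. Because this change is small, its direction was read under each alternative fit, of which only some change the scaling. It stayed between -0.27 and -0.14 over 18 alternatives. It was smallest, at -0.14, with upper-quartile scaling, which shifted log2 fold changes between layers by a median of 0.092. The size of this small change thus depended on the scaling, while its sign was the same under all 18 alternatives.

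Junb was at 7.21, 8.49, 8.03 and 7.92 CPM in null L6, at 14.7, 13.6, 12.9 and 15.97 CPM in WT L5 and at 9.74, 9.01, 10.3 and 10.3 CPM in WT L6. The groups did not overlap: null L6 was lowest, WT L6 in the middle and WT L5 highest. For null L6 over WT L6 the log2 fold change was -0.32 ± 0.080 (adjusted p = 0.0180), with all 4 null L6 libraries below all 4 WT L6 libraries. The call was lost without null L6 replicate 1 (adjusted p = 0.0513), without WT L6 replicate 3 (adjusted p = 0.0547) and without WT L6 replicate 4 (adjusted p = 0.0547). It was also lost in the 3 fits with a block or with paired libraries, with an adjusted p of 0.0548 with the replicate number as a block, 0.0808 in limma with the closest libraries as a random block and 0.190 with the closest libraries summed. Over 16 alternatives the log2 fold change stayed between -0.35 and -0.27 and the gene was called in 10 (adjusted p = 0.00598 to 0.190). For WT L5 over WT L6 it was 0.53 ± 0.077 (adjusted p = 1.49e-05).

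Transcript counts of Fos and Junb can also be set against those of Jun in the same library, free of any scaling between libraries. For every 100 Jun counts there were 1.87, 1.78, 2.33 and 1.75 Fos counts in null L6, 31.0, 30.7, 33.9 and 31.9 in WT L5 and 3.14, 1.81, 1.56 and 2.04 in WT L6. For Junb the same ratio was 13.3, 14.0, 13.5 and 13.3 in null L6, 29.7, 27.5, 26.7 and 32.3 in WT L5 and 17.3, 15.6, 18.4 and 17.2 in WT L6. Fos relative to Jun thus set WT L5 apart and did not separate the genotypes, whereas Junb relative to Jun was in separate ranges in all 3 groups, as was Junb by itself. These ratios of transcripts do not measure AP-1 proteins, and they leave out other AP-1 genes such as Jund and Fosl2.

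The EGR genes encode zinc-finger factors that bind GC-rich sites. Egr1, the member most used as a mark of activity, was at 5.11, 3.36, 4.43 and 4.05 CPM in null L6, at 8.98, 7.60, 8.31 and 7.45 CPM in WT L5 and at 5.60, 4.30, 5.34 and 4.32 CPM in WT L6. All WT L5 libraries were higher than all L6 libraries, and the L6 groups overlapped. The log2 fold change was -0.21 ± 0.14 between genotypes (adjusted p = 0.393) and 0.72 ± 0.11 between layers (adjusted p = 2.27e-05).

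Egr3, known in the study of memory and of muscle spindles, was at 4.10, 3.85, 3.07 and 4.91 CPM in null L6, at 16.8, 15.1, 16.2 and 14.9 CPM in WT L5 and at 4.35, 5.16, 4.27 and 4.19 CPM in WT L6. WT L5 was far above both L6 groups, which overlapped, and WT L6 replicate 2 stood above its group. Its log2 fold change was -0.17 ± 0.14 between genotypes (adjusted p = 0.490) and 1.82 ± 0.082 between layers (adjusted p = 2.58e-11). In each library, Egr3 can be set against Egr1: per 100 Egr1 counts there were 69.2 to 121 Egr3 counts in null L6, 187 to 199.5 in WT L5 and 77.7 to 120.1 in WT L6.

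Egr2, best known for its part in Schwann cell myelination and hindbrain patterning, had 7, 8, 9 and 10 counts in null L6, 77, 55, 60 and 45 counts in WT L5 and 15, 9, 20 and 32 counts in WT L6. In CPM it was at 0.147, 0.176, 0.219 and 0.237 in null L6, at 1.96, 1.61, 1.95 and 1.66 in WT L5 and at 0.312, 0.269, 0.436 and 0.579 in WT L6. The 3 groups did not overlap in CPM, and null L6 was the lowest. Between genotypes the log2 fold change was -1.06 ± 0.36, which did not pass the threshold (adjusted p = 0.0722) and rests on 7 to 32 counts per library. With all 3 groups in one fit the adjusted p was 0.0254, and over 16 alternatives it lay between 0.0254 and 0.347. Between layers it was 2.12 ± 0.24 (adjusted p = 1.12e-06).

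Egr4, a further zinc-finger gene of the EGR family, had 2, 2, 9 and 4 counts in null L6, 79, 70, 65 and 65 counts in WT L5 and 19, 6, 7 and 9 counts in WT L6. It averaged 0.100 ± 0.0831 CPM in null L6, 2.14 ± 0.175 CPM in WT L5 and 0.222 ± 0.116 CPM in WT L6 (SD, n = 4 each). The L6 groups overlapped, WT L6 replicate 1 was the highest of the L6 libraries, and WT L5 was above all of them. Between layers the log2 fold change was 3.23 ± 0.27 (adjusted p = 3.76e-08). Egr4 passed the filter on low counts there only through WT L5, so this p-value lends no support. Between genotypes Egr4 did not pass the filter, and without it the log2 fold change was -1.17 ± 0.59 (adjusted p = 0.253).

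Npas4, whose product is induced by calcium entry and regulates inhibitory synapses, had 5, 8, 11 and 20 counts in null L6, 65, 53, 63 and 52 counts in WT L5 and 12, 2, 7 and 10 counts in WT L6. Its level was 0.105, 0.176, 0.268 and 0.474 CPM in null L6, 1.66, 1.55, 2.04 and 1.92 CPM in WT L5 and 0.250, 0.0597, 0.153 and 0.181 CPM in WT L6. WT L5 was again clear of both L6 groups, and null L6 replicate 4 was the highest L6 library. WT L5 over WT L6 gave a log2 fold change of 3.38 ± 0.29 (adjusted p = 4.03e-08). Npas4 passed the filter on low counts there only through WT L5, so this p-value lends no support. Without the filter on low counts, which Npas4 did not pass between genotypes, null L6 over WT L6 gave 0.60 ± 0.53 (adjusted p = 0.557).

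Arc was at 3.01, 3.85, 2.95 and 3.11 CPM in null L6, at 6.96, 6.46, 7.66 and 7.12 CPM in WT L5 and at 3.29, 3.19, 3.27 and 2.77 CPM in WT L6. The L6 groups overlapped, and each WT L5 library was higher than any of them. Its log2 fold change was 0.047 ± 0.13 between genotypes (adjusted p = 0.859) and 1.17 ± 0.10 between layers (adjusted p = 5.75e-08).

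**Figure D2:**
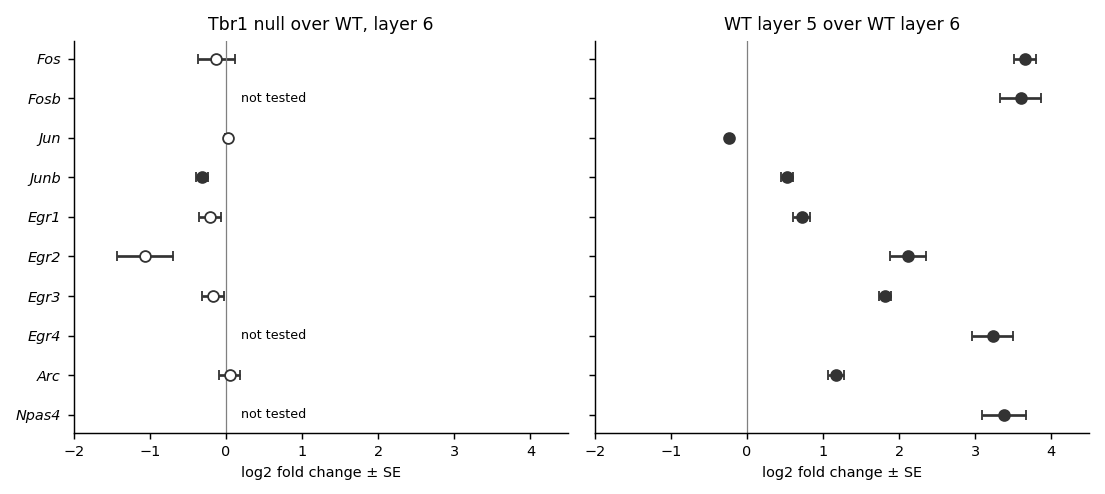
Log2 fold change ± SE of each immediate early gene for null L6 over WT L6 (left) and WT L5 over WT L6 (right), 4 libraries per group. Filled points passed an adjusted p of 0.05, open points did not, and "not tested" marks genes under the count filter; between genotypes only Junb is filled, at -0.32, and between layers all 10 are, with Jun alone below 0.

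Over the group, 7 of 10 genes passed the count filter between null L6 and WT L6, and of these 0 were higher and 1 was lower, while 14.2% of 14588 genes tested were called in either direction (7.31% higher, 6.86% lower). The share of 1 in 7 is near that background. At an unadjusted p under 0.05, 0 were higher and 2 were lower (Junb and Egr2). The share of all genes at that unadjusted threshold is not given here, so this count is not set against it. DESeq2 called 0 of the group higher and 1 lower, beside 1258 higher and 1164 lower over all genes. Egr2 reached the filter's level in 1 null L6 library and in all 4 WT L6 libraries. It thus passed through the group where it was higher, and its lower level in null L6 lends no support. The other 6 genes, which reached it in every library, had a median log2 fold change of -0.15, against 0.00034 over all genes tested. Null L6 lay wholly below WT L6 for Junb and Egr2 and wholly above it for 0 of the 10, against 9.79% and 10.1% of all genes tested (19.9% either way). For Egr2 this rests on 7 to 10 counts in null L6 and 9 to 32 counts in WT L6.

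Between WT L5 and WT L6, all 10 genes passed the filter and were called, 9 higher and 1 lower. This count says little on its own, since 85.5% of 14927 genes tested were called (42.2% higher, 43.4% lower). Fosb, Npas4 and Egr4 reached the filter's level in 0, 0 and 1 of the WT L6 libraries, so they passed through WT L5 and had to differ. The 7 genes that reached it in every WT L6 library comprised 6 that were higher and 1 that was lower. For these 7 the place among all genes varied: 1.13% of genes tested had a log2 fold change at least that of Fos, 5.49% at least that of Egr2, 7.72% at least that of Egr3, 15.3% at least that of Arc, 24.5% at least that of Egr1, 29.8% at least that of Junb and 60.6% at least that of Jun. The median over the 7 was 1.17, against -0.010 over all genes tested. WT L5 lay wholly above WT L6 for 9 of the 10 genes and wholly below it for Jun, against 40.2% and 41.0% of all genes tested.

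**Figure D3:**
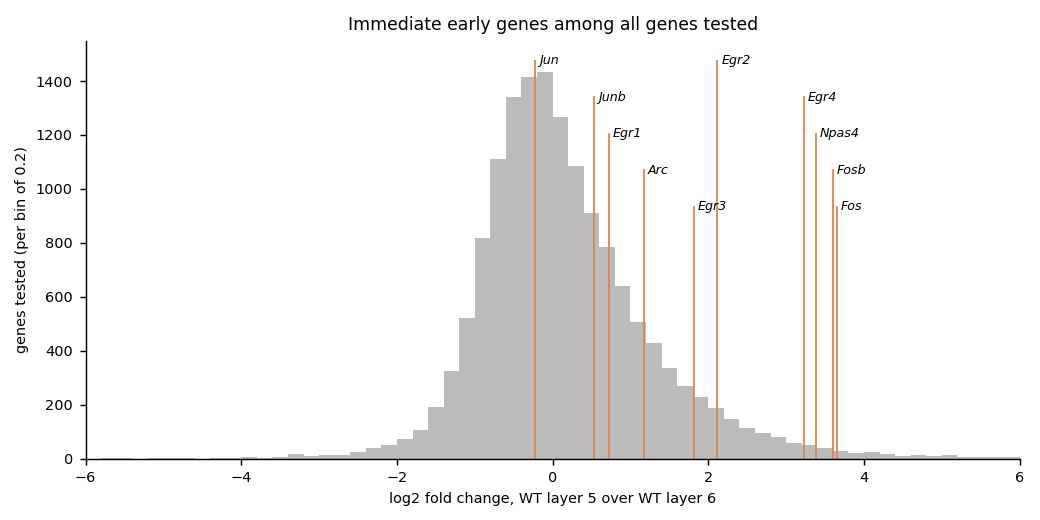
Number of genes tested by log2 fold change of WT L5 over WT L6 (grey, bins of 0.2; 24 genes lie beyond the plotted range of 6 either way), with vertical lines at the 10 immediate early genes. Line heights are staggered for legibility and carry no value; Jun lies within the bulk of genes at -0.23, and Egr4, Npas4, Fosb and Fos lie at 3.23 to 3.65.

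By sequencing batch, Fos averaged 15.3 CPM in the WT L5 libraries of batch B and 16.1 CPM in those of batch C, Egr3 15.96 and 15.5 CPM, Arc 6.71 and 7.39 CPM, and Jun 49.5 and 48.9 CPM. With the libraries of batch B alone against WT L6, and with those of batch C alone, all 10 genes were called, as were 80.3% and 79.6% of all genes tested in those fits, so that this count too says little. Null L6 against each batch also called all 10, beside 78.4% and 77.7% of all genes tested. The close pairs of WT L5 libraries span both batches, so the fits by batch may not rest on separate samples. Neither batch holds L6 libraries, so no comparison of layers within a batch could be made.

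The libraries labelled null L6 and WT L5 were also compared, which shares its libraries with the comparisons above. Of the 10 genes, 1 was higher in null L6 (Jun, log2 fold change 0.25 ± 0.042) and 9 were lower, while 84.3% of 15013 genes tested were called (42.4% higher, 41.8% lower). The log2 fold change was -3.80 ± 0.11 for Fos, -4.90 ± 0.33 for Fosb, -4.42 ± 0.35 for Egr4 and -2.81 ± 0.33 for Npas4. It was -3.20 ± 0.25 for Egr2, -1.98 ± 0.11 for Egr3, -1.13 ± 0.11 for Arc, -0.93 ± 0.12 for Egr1 and -0.85 ± 0.082 for Junb, with adjusted p-values of 6.12e-05 or less over all 10. Null L6 and WT L5 were apart for all 10, as for 79.9% of all genes tested (40.3% with null L6 above, 39.6% with null L6 below). Fosb, Egr2 and Egr4 reached the filter's level in 0 of the null L6 libraries, so they passed through WT L5 and had to differ. Npas4 reached it in 2 of the null L6 libraries and also passed through WT L5, so its call lends no support. Genotype, layer and batch all differ between these groups.

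Cell type markers moved with the layer comparison, in which 42.2% of all genes tested were higher and 43.4% lower. The summed level of 10 astrocyte markers was 5181 to 5197 CPM in WT L5 and 863 to 993 CPM in WT L6, and 9 of the 10 were higher. All 9 oligodendrocyte lineage markers, 10 of 10 microglial markers and 9 of 9 vascular and blood markers that passed the filter were higher too. Oligodendrocyte lineage markers summed to 1106 to 1118 CPM in WT L5 and 259.8 to 273 CPM in WT L6, microglial markers to 307 to 318 CPM in WT L5 and 94.3 to 107 CPM in WT L6, and vascular and blood markers to 681 to 698 CPM in WT L5 and 309.5 to 322 CPM in WT L6. All 3 lists were above WT L6 in every WT L5 library. Glutamatergic neuron markers summed to 2419 to 2457 CPM in WT L5 and 4936 to 5213 CPM in WT L6, with 2 higher and 5 lower of 7, and interneuron markers to 208 to 216 CPM in WT L5 and 359 to 379 CPM in WT L6, with 1 higher and 7 lower of 9. Dividing progenitor markers summed to 831 to 846 CPM in WT L5 and 959 to 970.2 CPM in WT L6, with 2 higher and 4 lower of 8. Of the 7 layer 5 markers, 2 were higher and 5 were lower in WT L5, and all 6 layer 6 markers were lower. The part of these cell types in the higher Fos, EGR, Npas4 and Arc levels of WT L5 was not tested.

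**Figure D4:**
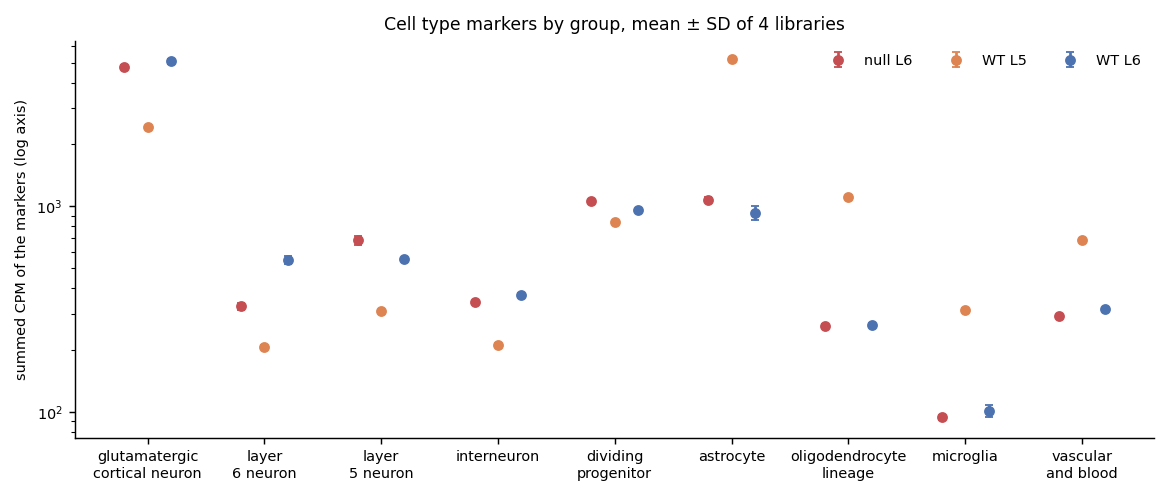
Summed CPM (log axis) of fixed marker lists for 9 cell classes in null L6, WT L5 and WT L6, as mean ± SD of 4 libraries; most SDs are smaller than the points. Glial and vascular markers are highest in WT L5, and neuronal markers are lowest there.

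Between genotypes, where 7.31% of all genes tested were higher and 6.86% lower, astrocyte markers summed to 1038 to 1110 CPM in null L6 and 863 to 993 CPM in WT L6 (5 higher, 2 lower of 10), and layer 6 markers to 315 to 340 CPM in null L6 and 526 to 573 CPM in WT L6 (0 higher, 5 lower of 6; DESeq2 also called 0 higher, and 0 were higher at an unadjusted p under 0.05). Vascular and blood markers summed to 289 to 294.5 CPM in null L6 and 309.5 to 322 CPM in WT L6 (2 lower of 9), dividing progenitor markers to 1052 to 1068 CPM in null L6 and 959 to 970.2 CPM in WT L6 (5 higher of 8), and glutamatergic neuron markers to 4574 to 4837 CPM in null L6 and 4936 to 5213 CPM in WT L6 (2 lower of 7). Interneuron markers had 1 higher and 4 lower of 9 in null L6, oligodendrocyte lineage markers 2 higher and 4 lower of the 8 that passed the filter, and layer 5 markers 4 higher of 7. Microglial markers summed to 91.9 to 97.7 CPM in null L6 and 94.3 to 107 CPM in WT L6, with 0 of 10 called by edgeR and by DESeq2, and 1 lower at an unadjusted p under 0.05. Hbb-b1, a red blood cell globin, had 0 counts in null L6 and in WT L5, and was the 1 marker at 0 in a whole group. The ribosomal RNA gene Rn45s took 0.592% to 2.67% of counts in null L6, 1.21% to 1.25% in WT L5 and 0.384% to 0.723% in WT L6. Their part in the lower Junb of null L6 was not tested.

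A second list held 44 other immediate early genes, among them further nuclear receptors, phosphatases and zinc-finger factors. This list and those below were chosen with earlier results of these data known, so their shares called are descriptive and lend no support. Between layers 7 were higher and 31 lower in WT L5 (15.9% and 70.5%, beside 42.2% and 43.4% of all genes tested), and the list's median log2 fold change was -0.51 against -0.010 over all genes tested. Dusp4, a phosphatase that switches off ERK, averaged 12.2 ± 0.747 CPM in WT L5 and 93.4 ± 7.36 CPM in WT L6 (SD, n = 4 each), a log2 fold change of -2.94 ± 0.060 (adjusted p = 4.33e-15). Nr4a2, a nuclear receptor that also marks subplate neurons, averaged 13.2 ± 0.355 CPM in WT L5 and 94.6 ± 8.06 CPM in WT L6 (log2 fold change -2.85). Ier5 fell by 2.06 and the anti-apoptotic Mcl1 by 0.79 on the log2 scale. The 7 that were higher, named here after their values were seen, were Ptgs2 (the prostaglandin synthase COX-2, log2 fold change 3.18), Dusp2 (0.91), Csrnp1 (0.60), Klf2 (0.56), Plk3 (0.46), Nr4a1 (0.34) and Per1 (0.15).

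Between genotypes 43 of these 44 genes passed the filter, 7 were higher and 4 lower in null L6 (25.6% called, beside 14.2% of all genes tested), and the median log2 fold change was -0.041. Ctgf, a secreted matrix protein that in cortex marks layer 6b, averaged 7.09 ± 1.01 CPM in null L6 and 14.4 ± 1.06 CPM in WT L6, a log2 fold change of -1.03 ± 0.098 (adjusted p = 1.21e-05). Nr4a2 averaged 58.9 ± 5.98 CPM in null L6 and 94.6 ± 8.06 CPM in WT L6 (log2 fold change -0.68). Dusp4 averaged 138 ± 14.5 CPM in null L6 and 93.4 ± 7.36 CPM in WT L6 (0.56), and Plk3, a polo-like kinase, 12.6 ± 0.851 CPM in null L6 and 9.02 ± 0.626 CPM in WT L6 (0.48).

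The proteins that partner or restrain the members were read from a list of 17 genes. Between genotypes 14 passed the filter, with 2 higher and 3 lower in null L6 (35.7% called, beside 14.2% of all genes tested). Nab1 and Nab2, corepressors that bind EGR proteins, fell by 0.26 and 0.39 on the log2 scale, while Fosl2, another FOS family gene, averaged 131 ± 8.79 CPM in null L6 and 108 ± 4.10 CPM in WT L6 (log2 fold change 0.28), and the stress factor Atf4 rose by 0.13. Between layers 15 passed, with 5 higher and 6 lower in WT L5 (73.3% called, beside 85.5% of all genes tested). Jund averaged 68.0 ± 1.97 CPM in WT L5 and 128 ± 6.79 CPM in WT L6, a log2 fold change of -0.92 ± 0.040 (adjusted p = 1.65e-11). Maf and Atf4 fell by 0.89 and 0.60.

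Upstream of the members, a list of 42 genes that carry activity to transcription had 24 higher and 11 lower in WT L5 than in WT L6 (57.1% and 26.2%, beside 42.2% and 43.4% of all genes tested). The share called in either direction, 83.3%, was near the 85.5% over all genes tested, and the median log2 fold change of the list was 0.23. Grin2a, an NMDA receptor subunit, averaged 32.3 ± 0.511 CPM in WT L5 and 5.00 ± 0.494 CPM in WT L6 (log2 fold change 2.69 ± 0.066), and Camk4, a nuclear kinase that phosphorylates CREB, averaged 382 ± 13.0 CPM in WT L5 and 120.3 ± 5.41 CPM in WT L6 (1.66 ± 0.034). Camk2b rose by 0.58, and Rps6ka5, a histone and CREB kinase, fell by 1.21. Between genotypes 3 were higher and 5 lower in null L6 (19.0% called, beside 14.2% of all genes tested). The transcription factor gene Mef2c averaged 687 ± 27.7 CPM in null L6 and 936 ± 67.3 CPM in WT L6, a log2 fold change of -0.45 ± 0.047 (adjusted p = 2.87e-05), and Camk2b, the ERK gene Mapk3 and its target Elk1 fell by 0.23, 0.23 and 0.19.

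Downstream, a list of 24 late response genes, which are induced after the immediate early factors, had 10 higher and 10 lower in WT L5 than in WT L6 (83.3% called, beside 85.5% of all genes tested). Rasgrp1, an activator of RAS, averaged 46.6 ± 1.77 CPM in WT L5 and 8.48 ± 1.52 CPM in WT L6 (log2 fold change 2.47 ± 0.092), and Rgs4, a regulator of G protein signalling, 100.6 ± 3.70 CPM in WT L5 and 40.9 ± 2.70 CPM in WT L6 (1.29 ± 0.046). Mfap3l rose by 1.94 and the potassium channel gene Kcnj4 by 1.61. Bdnf, a neurotrophin and classic NPAS4 target named here after its values were seen, was lower, at 2.22 ± 0.237 CPM in WT L5 and 4.54 ± 0.264 CPM in WT L6 (-1.03 ± 0.12, adjusted p = 1.52e-06). Between genotypes 7 were higher and 4 lower in null L6 (45.8% called, beside 14.2% of all genes tested), among them Sorcs3 (log2 fold change 0.73), Inhba (0.69), Rgs4 (0.56) and Igf1 (-0.60). This share lends no support, since the list was chosen with earlier results of these data known.

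Of 14 genes whose products bind or act with ARC, 8 were higher and 4 lower in WT L5 than in WT L6 (85.7% called, beside 85.5% of all genes tested), and 3 were higher and 2 lower in null L6 than in WT L6 (35.7% called, beside 14.2%). Dlg4, the postsynaptic scaffold PSD-95, averaged 614 ± 14.4 CPM in WT L5 and 244 ± 3.50 CPM in WT L6 (log2 fold change 1.33 ± 0.023). Iqsec1 also rose by 1.33 between layers, and by 0.15 between genotypes. Wasf1, an actin regulator, averaged 58.1 CPM in null L6 and 46.0 CPM in WT L6 (0.34 ± 0.051).

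Heat shock genes are a stress-induced class of chaperones and their regulators. Of 15, 3 were higher and 11 lower in WT L5 than in WT L6 (93.3% called, beside 85.5% of all genes tested; 73.3% lower, beside 43.4%), with a median log2 fold change of -0.39. Hspa5, Dnaja1, Hsp90aa1 and Hsp90ab1 fell by 1.12, 1.04, 0.99 and 0.96 on the log2 scale. Between genotypes edgeR called 0 of 15, with 4 higher and 1 lower at an unadjusted p under 0.05, and DESeq2 called 1 higher and 0 lower.

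**Figure D5:**
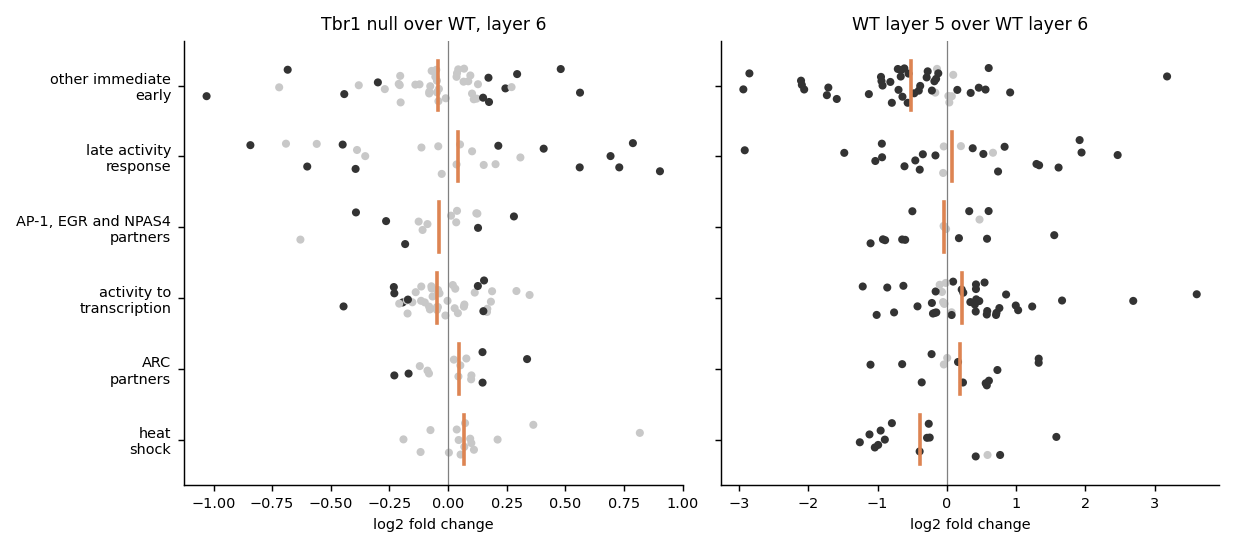
Log2 fold changes of the genes in 6 lists for null L6 over WT L6 (left) and WT L5 over WT L6 (right), on different horizontal scales. Each point is a gene, dark where called and light where not, and the vertical bars are list medians; on the right the other immediate early genes and the heat shock genes have medians of -0.51 and -0.39, and the signalling genes one of 0.23.

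The members were also set beside other genes with a mean of at least 1 CPM. Predicted genes (Gm and a number, or Rik) were left out. The measure was how far their levels, each centred on its own mean on the log2 scale, differed over the 12 libraries (root mean square difference). The genes most like Fos were Plekhb1 (0.187), Ttn (0.246) and S100a16 (0.251). For Egr1 they were Trpm2 (0.119), Rasgrp3 (0.127) and Gyk (0.135), for Arc they were Arhgef5 (0.0848), Sgsm2 (0.0952) and Ahcyl2 (0.0979), and for Npas4 they were Eva1a (0.410), Tfr2 (0.425) and Tchh (0.431). Plekhb1 averaged 4.87 CPM in null L6, 59.0 CPM in WT L5 and 4.95 CPM in WT L6. Among the members, the measure was 0.401 between Fos and Fosb, 0.470 between Fos and Egr4, 0.233 between Egr1 and Junb, 0.289 between Egr1 and Arc and 1.87 between Fos and Jun. The measure describes these 12 libraries and takes up the difference between layers that each of these genes has.

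In the second table deposited by the authors, of whole-number normalised scores, all 10 genes were listed as well. Fos had mean scores of 1.0 in null L6, 17.25 in WT L5 and 1.25 in WT L6, Egr3 had 4.0, 15.25 and 4.25 in the same groups, and Jun had 60.25, 52.5 and 58.0. Fosb, Egr4 and Npas4 were listed at 0 in every L6 library and at a mean of 1.0 in WT L5, so that this table resolves no more for them.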

How the data were processed

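RNA was measured in 12 libraries, 4 per group, with groups taken from the sample titles. Whole-number counts per gene were deposited by the authors. Per the submitters' processing notes, reads went through STAR 2.5.2b and HTSeq with mm9 as the build; annotation and strand setting were not given in the sources used here. Reads from a gene and its antisense partner may thus be mixed. Among the 10 genes only Egr2 overlapped another annotated gene, Gm32255, which is not among the genes counted. Scores, whole numbers equalised between libraries by steps not given, were deposited by the authors for 14567 genes, and were used as values only. The 10 genes, the lists and the rule for named genes were chosen with earlier results of these data known; the rule took all 10 genes and up to 4 called genes with the smallest adjusted p from each list.

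The quasi-likelihood F-test of edgeR 4.0.16 (R 4.3.3) was run on the counts of each pair of groups, with TMM, filterByExpr at a minimum count of 10 and Benjamini-Hochberg adjustment over all genes tested. Totals of 27465597 to 54899002 counts per library limit the precision. Tested on simulated data, the null L6 and WT L6 step recovered 80%, 86%, 100% and 96% of genes changed 1.5-, 2-, 4- and 8-fold, with 19 false calls among 14588 genes, and the WT L5 and WT L6 step 82%, 88%, 98% and 100%, with 11 among 14927. Simulated libraries were drawn independently, with 50 genes changed at each fold. They lack the close pairs of these libraries and the wide difference between layers, so these rates may not carry over. Alternatives were DESeq2 1.42.0, limma 3.58.1 with a random block, other scalings, no filter, 1 fit of all groups, single libraries left out, a replicate block and summed libraries. Per-sample columns left unmatched numbered 0. ChIP samples of cortex at postnatal day 2 (6 of the 18 samples) were not analysed here.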

Additional observations from a re-analysis of the deposited data

Results flagged for a closer look

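In 30 sets of 4 libraries (10 genes in 3 groups), the highest or lowest library was set against the others by Dixon's ratio, its gap to the nearest library divided by the range of the group. With a critical value of 0.829, chance alone marks about 1 set in 20, and 2 sets were marked here. Egr3 in WT L6 had a ratio of 0.842, with replicate 2 at 5.16 CPM and the others at 4.19 to 4.35 CPM. Egr4 in WT L6 had a ratio of 0.891, with replicate 1 at 0.395 CPM (19 counts) and the others at 0.153 to 0.179 CPM (6 to 9 counts).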

How the results depend on the processing

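Between WT L5 and WT L6, and between null L6 and WT L5, all 10 genes kept their direction and their call under 18 alternatives each. This says little on its own, since 85.5% and 84.3% of all genes tested were called in the main fits. Fosb, Npas4 and Egr4 in the first comparison, and Fosb, Egr2 and Egr4 in the second, passed the filter through WT L5 and had to differ. Npas4 in the second, at the filter's level in 2 of the null L6 libraries, also passed it through WT L5, so its call lends no support. Leaving out single libraries gave 12520 to 12850 and 12380 to 12688 calls over all genes. Between null L6 and WT L6, 2068 genes were called. Summing the closest libraries (2 against 2) gave 479, limma with those pairs as a random block gave 1277, and leaving out single libraries gave 1632 to 1838. The number of immediate early genes called, 1 (Junb), was 2 with all 3 groups in one fit (Junb and Egr2), 0 with summed libraries (Junb adjusted p = 0.190), 0 with the random block (0.0808) and 0 to 1 without single libraries. Deviations from the group means of same-numbered null L6 and WT L6 libraries correlated at -0.139 to -0.0938. All 8 pairings of replicates 1 and 2 of one group with 3 and 4 of the other were above 0 (0.0717 to 0.134), and the 8 others were below 0 (-0.149 to -0.0861). Such deviations sum to 0 within a group that falls into close pairs, so the signs of these correlations are tied to each other. They cannot settle whether replicate numbers pair the samples. With the replicate number as a block, the number called was 0 (Junb adjusted p = 0.0548; 1526 calls over all genes). Without single libraries the log2 fold change of Fos was -0.26 to 0.11 (above 0 without WT L6 replicate 1) and that of Arc -0.049 to 0.087 (below 0 without null L6 replicate 2 and, at -0.011, without WT L6 replicate 4), none of them called. Without scaling factors 866 genes were higher and 1238 lower, against 1067 and 1001. The cause of these shifts was not tested. The summed fit also has fewer samples, and the part of that in its lower count was not tested either. Counts of 1 to 32 in L6 libraries limit what can be said of Fosb, Egr2, Egr4 and Npas4.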
